A study of Rattus norvegicus with 48 samples.

Results

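Matrix metalloproteinases are zinc enzymes that cut collagens, laminins and other proteins outside the cell. Some of the ADAMTS enzymes cut the proteoglycans that fill the space around neurons. Most enzymes of both families are made as inactive precursors, and the tissue inhibitors (TIMPs) bind and block the active enzymes. In the brain they are known for remodelling the matrix around synapses and blood vessels, and several are made by microglia and astrocytes during inflammation. The 10 genes described here are the rows of the deposited expression table with the symbols Mmp2, Mmp3, Mmp9, Mmp12 and Mmp14 (5 metalloproteinases), Adamts1 and Adamts4 (aggrecan- and versican-cutting enzymes) and Timp1, Timp2 and Timp3 (inhibitors). They are 10 of 30211 genes in the table, taken by symbol with earlier results of these data known, so their shares of calls beside those of all genes are descriptions. All 10 passed the filter on low values described below.

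Expression was measured by RNA-seq in 48 libraries of mixed brain cell cultures from Sprague-Dawley rat fetuses of day 18, grown for 21 days in vitro, in 16 groups of 3. Control cultures were untreated. Cocaine cultures received 25 µM cocaine for 24 h, Tat cultures 6 ng/mL of HIV-1 Tat for 48 h, and Tat-Cocaine cultures both at those doses and times. Another 12 groups received 1 of 4 compounds for 48 h, either by itself, beside Tat or beside Tat-Cocaine: 4OI at 250 µM (4-octyl itaconate, a membrane-permeable ester of itaconate), Amlexanox at 25 µM (an inhibitor of the kinases TBK1 and IKKε), Tazemetostat at 3 µM (an inhibitor of the histone methyltransferase EZH2) and Senicapoc at 1 µM (a blocker of the potassium channel KCa3.1). The labels do not say which libraries came from separate dissections, so p-values measure the spread between these libraries, which may be technical in part. The series design names a vehicle control, but no group is labelled as one.

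The values are CPM, reads per gene scaled to library size after TMM normalization by the authors, and levels are given for each library or as mean ± SD (n = 3). Libraries held 17.5 M to 29.1 M reads assigned to genes, and 0.5 CPM stood for 8.58 to 14.96 reads. A gene entered the test when 3 or more of 48 libraries reached 0.5 CPM, which 15890 did, and it was tested with limma on log2(CPM + 0.5) in 1 fit to all 16 groups. A gene was called when its Benjamini-Hochberg FDR was under 0.05, and fold changes are on the log2(CPM + 0.5) scale with their standard error (SE), which understates the changes of genes near 0.5 CPM. The labels call the cells neurons. All 10 neuron markers were detected in every library (summed level 1015 to 4621 CPM), and so were all 9 astrocyte markers (5822 to 14325 CPM), all 12 microglia and macrophage markers (602 to 5526 CPM) and all 8 oligodendrocyte markers (231 to 25900 CPM). Endothelial markers summed to 8.46 CPM at most, and Cldn5 and Emcn were at 0 in 25 and 34 of 48 libraries. Cdh5, Kdr and Tek were detected in every library at low levels (Cdh5 up to 5.72 CPM), and Flt1 was at 0 in 1. In bulk RNA, fewer cells of a type and less RNA per cell cannot be told apart.

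Which of these genes respond to Tat was asked by comparing Tat with Control cultures. Mmp9, Timp1, Adamts4 and Mmp2 rose and Timp3 fell, 5 of 10 members, while 14.6% of all tested genes rose and 6.7% fell (21.3% in either direction). The gelatinase Mmp9, which cuts denatured collagen and basement membrane, was at 3.22, 5.1 and 0.681 CPM in Control and at 42.3, 12.1 and 7.33 CPM in Tat libraries. Each Tat library lay above each Control library, but the spread in the Tat group was wide. The fold change was 5.55 (log2 2.47, SE 0.55, FDR = 0.00119). Timp1, the inducible inhibitor that binds most of the secreted metalloproteinases and the precursor of MMP9, was at 32.8, 59.5 and 34.6 CPM in Control and at 231.8, 286.9 and 326.4 CPM with Tat. Its groups stood far apart, with a fold change of 6.78 (log2 2.76, SE 0.30, FDR = 1.94e-08). Adamts4, an aggrecanase, was at 17.9, 7.31 and 2.81 CPM in Control and at 38.3, 70.9 and 112.9 CPM with Tat (8.70-fold, log2 3.12, SE 0.65, FDR = 0.000623). Mmp2, the constitutive gelatinase, was at 4.45, 9.56 and 17.6 CPM in Control and at 31.5, 34.4 and 24.2 CPM with Tat (3.13-fold, log2 1.64, SE 0.39, FDR = 0.00211). In neither gene did a Tat library reach down to the highest Control library. In a fit to the 6 compared libraries alone, the calls of Mmp9 (FDR = 0.099) and Mmp2 (FDR = 0.0685) were lost, and the other 3 were kept.

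Timp3, the inhibitor that stays bound to the matrix and also blocks ADAMTS enzymes and the sheddase ADAM17, went the other way. It was at 169.9, 168.8 and 270.9 CPM in Control and at 91.5, 108.4 and 94.5 CPM with Tat, a log2 change of -1.01 (SE 0.26, FDR = 0.00398). All 3 Tat libraries lay below all 3 Control libraries. The fall of Timp3 and the rise of Timp1 therefore took place in the same cultures. Of the others, Mmp14, the membrane-bound activator of the MMP2 precursor, had a log2 difference of 0.52 (SE 0.23, FDR = 0.101), Adamts1 of 0.68 (SE 0.40, FDR = 0.223) and Timp2 of 0.05 (SE 0.18, FDR = 0.856).

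Tat was also compared with its absence over 5 backgrounds (no compound and each of the 4 compounds, all without cocaine), which sets 15 libraries against 15. By this average 8982 of 15890 genes were called (56.5%), 29.9% higher and 26.7% lower, so a call alone says little about a gene. Of the members 6 rose and 1 fell, with Mmp9 highest (6.29-fold, log2 2.65, SE 0.25, FDR = 6.17e-11), then Timp1 (4.18-fold, log2 2.07, SE 0.13, FDR = 1.03e-14) and Adamts4 (3.97-fold, log2 1.99, SE 0.29, FDR = 7.72e-07). Smaller rises were those of Mmp2 (log2 0.87, SE 0.17, FDR = 7.22e-05), Mmp3 (0.74, SE 0.22, FDR = 0.00516) and Mmp14 (0.27, SE 0.10, FDR = 0.0249). Backgrounds differed within these averages. Mean Mmp3 was 0.3385 CPM in 4OI and 2.92 CPM in Tat-4OI cultures, but 0.3825 CPM in Amlexanox and 0.268 CPM in Tat-Amlexanox cultures. Mean Mmp2 was 8.07 CPM in 4OI and 8.34 CPM in Tat-4OI cultures. In each remaining background the mean of either gene was higher with Tat. The call of Mmp14 was lost when any 1 of 3 libraries was left out, with a highest FDR of 0.054 (without Tazemetostat replicate 1). Timp3 fell by 0.57 on the log2 scale (SE 0.11, FDR = 8.35e-05). Mmp12, Timp2 and Adamts1 were not called. The median over the 10 members was a log2 change of 0.51, against -0.003 over all genes tested.

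**Figure D1:**
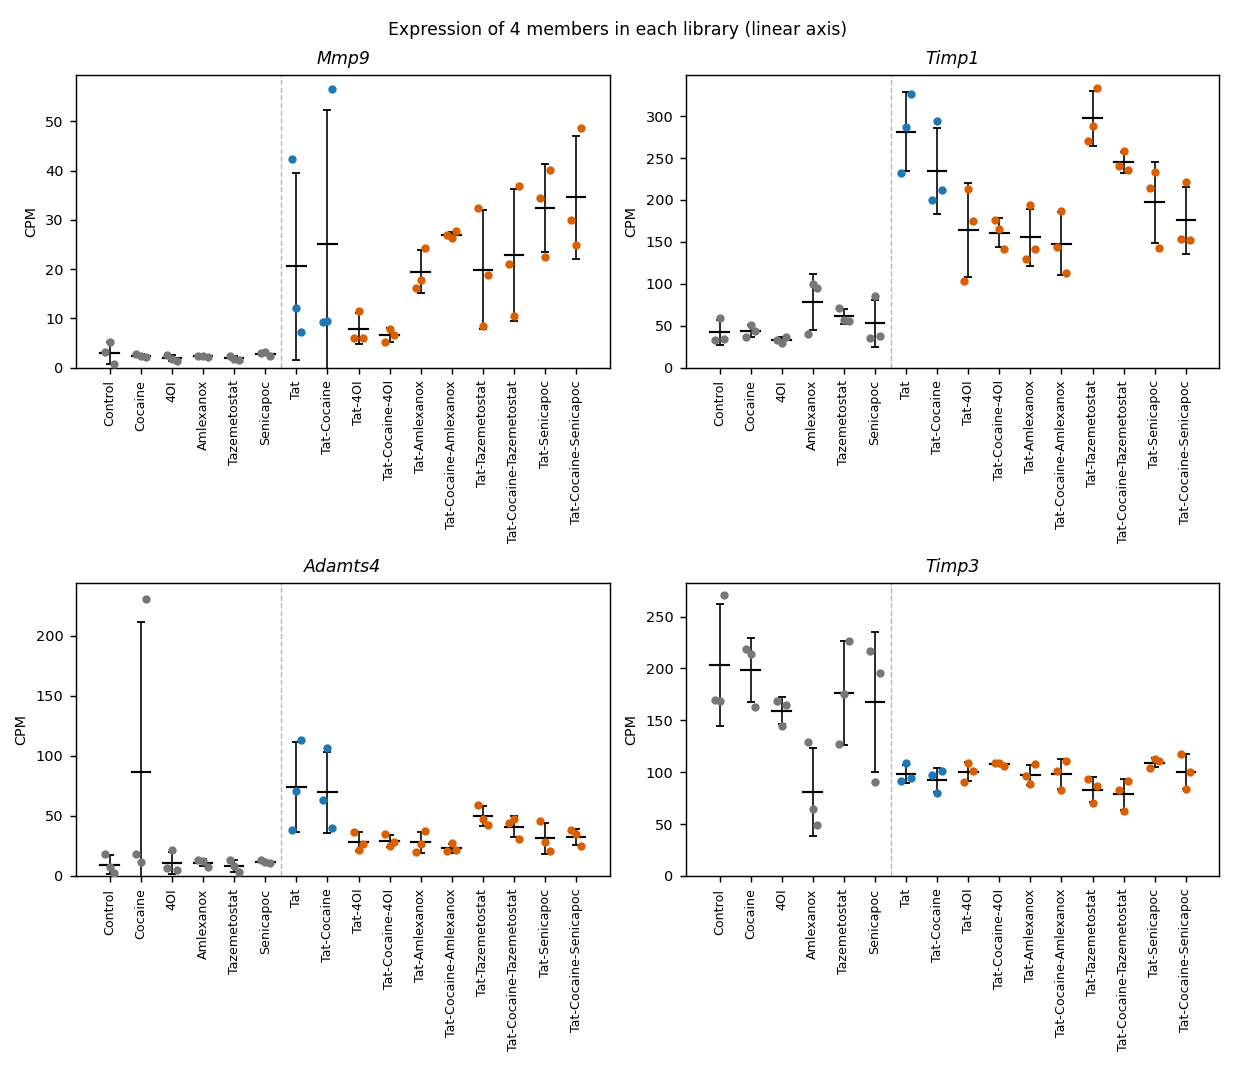
CPM of Mmp9, Timp1, Adamts4 and Timp3 in each of 48 libraries (points, 3 per group; lines are mean ± SD, cut at 0), with groups without Tat in grey, Tat and Tat-Cocaine in blue and groups with Tat and a compound in orange. The 30 libraries with Tat lie above the other 18 for Mmp9 (lowest 5.24 against highest 5.1 CPM) and Timp1 (102.8 against 99.8 CPM), and Cocaine replicate 3 stands alone for Adamts4 at 230.8 CPM. The share of all genes that separate in this way is not given.

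For Mmp9 and Timp1, the lowest of the 30 libraries with Tat lay just above the highest of the 18 without it. The share of all genes that separate in this way is not given, so this is a description of levels only. Mmp9 ranged from 0.681 to 5.1 CPM (median 2.34) in the 18 libraries without Tat and from 5.24 to 56.6 CPM (median 20) in the 30 with it. Timp1 ranged from 29.8 to 99.8 CPM (median 42.1) without and from 102.8 to 334.2 CPM (median 205.7) with Tat. Mmp9 was called higher with Tat within Amlexanox, Tazemetostat and Senicapoc cultures, with log2 changes of 2.81, 2.92 and 3.28 (SE 0.55 each). Within 4OI cultures its log2 difference was 1.78 (SE 0.55, FDR = 0.05), at the threshold and not called. Timp1 was called in all 4, with log2 changes of 2.24 with 4OI, 1.07 with Amlexanox, 2.27 with Tazemetostat and 1.99 with Senicapoc (SE 0.30 each). Counting all members, 2 were called with Tat against its absence in 4OI cultures (5.18% of all genes), 4 in Amlexanox cultures (39.6%), 4 in Tazemetostat cultures (16.1%) and 2 in Senicapoc cultures (16%).

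Microglia markers moved with Tat as well. Of 12 markers, 7 were higher and 1 lower over the 5 backgrounds, led by Itgam (log2 1.52, SE 0.18, FDR = 8.02e-09) and Aif1 (log2 1.51, SE 0.27, FDR = 1.64e-05). The summed level of the 12 markers was 989 to 4198 CPM without and 602 to 5526 CPM with Tat, and these ranges overlapped. The neutrophil genes Csf3r (log2 2.34, SE 0.28, FDR = 1.77e-08) and S100a8 (log2 2.72, SE 0.18, FDR = 1.03e-14) were also higher, while the neutrophil markers Elane and Ltf were at 0 in 47 and 45 of 48 libraries. Of 10 neuron markers 8 were lower, and of 9 astrocyte markers 5 were lower and 2 higher. Of 7 fibroblast and mural cell markers 3 were higher (Kcnj8, log2 1.69, Col1a1, 1.03, and Pdgfrb, 0.46) and 2 lower, among them Dcn (log2 -0.91), and their summed level was 70.1 to 463 CPM (median 116) without and 85.2 to 549 CPM (median 295.2) with Tat. Beside these marker counts, 29.9% of all genes were higher and 26.7% lower in the same comparison, so a count of calls alone says little about a cell type. The part of cell numbers in the changes of the proteases was not tested.

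Cocaine on its own gave no call among the members (0 of 10 by limma, 2 at an unadjusted p under 0.05), and 0.201% of all genes were called. The 2 were Mmp12 and Adamts4. Adamts4 was at 18.6, 11.2 and 230.8 CPM in Cocaine libraries, so replicate 3 was above every other library of the series and the other 2 lay within or just above the Control range. Without that library the log2 difference was 0.93 in place of 2.25 (SE 0.65, FDR = 0.135), and without Cocaine replicate 2 it was 3.09 (FDR = 0.0441). The same library held 25900 CPM of the 8 oligodendrocyte markers, where the other 47 held 231 to 2357 CPM, and its Mbp, a main protein of myelin, was at 9293 CPM against 355.5 and 258.7 CPM in the other Cocaine libraries. Over the 17 other libraries without Tat, Adamts4 and the summed markers had a Pearson r of 0.86 and a Spearman rho of 0.84 on the log2 scale, and over the 30 with Tat an r of 0.40 and a rho of 0.31. These are descriptions over libraries that share groups, and the part of oligodendrocytes in the level of Adamts4 was not tested. Of the 8 markers 1 was called higher with Tat over 5 backgrounds (Myrf, log2 1.00) and 0 lower. Over all genes 29.9% were higher and 26.7% lower there.

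**Figure D2:**
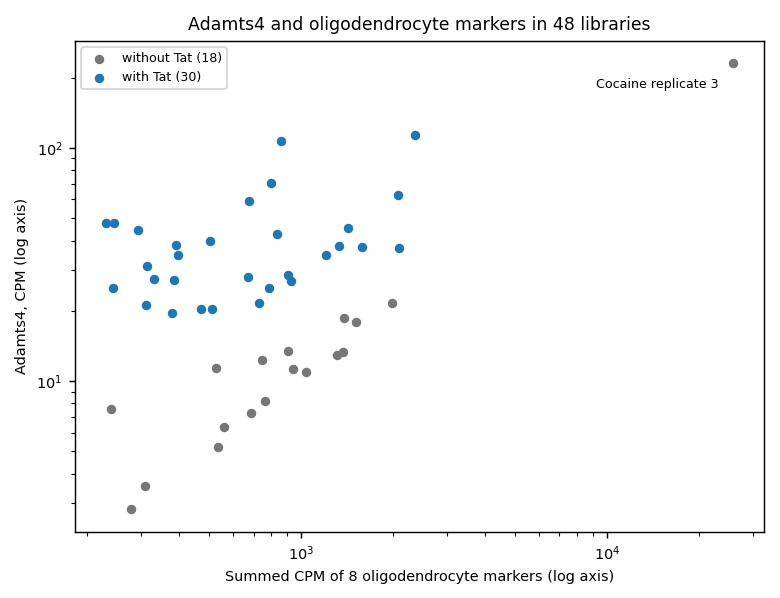
Adamts4 in CPM (log axis) against the summed CPM of 8 oligodendrocyte markers (log axis), 1 point per library, for 18 libraries without Tat (grey) and 30 with Tat (blue). Cocaine replicate 3 lies apart at 25900 and 230.8 CPM, and the 30 libraries with Tat lie between 19.6 and 112.9 CPM of Adamts4.

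The Tat-Cocaine cultures were asked whether cocaine changes the response to Tat. Against Control, 6 members rose and 1 fell, with 8.63% of all genes higher and 6.3% lower (14.9% in either direction). Adamts4 was at 63.0, 106.5 and 39.8 CPM (log2 3.06, SE 0.65, FDR = 0.00121) and Mmp9 at 9.32, 9.46 and 56.6 CPM (log2 2.61, SE 0.55, FDR = 0.00105). In Mmp9 replicate 3 alone was high, and it was replicate 1 that was high among Tat libraries. Timp1 (log2 2.49), Mmp2 (2.00), Adamts1 (1.29, SE 0.40, FDR = 0.0281) and Mmp12 (1.1, SE 0.34, FDR = 0.0237) were the other rises, and Timp3 was lower by a log2 change of -1.1. Leaving out 1 library ended the call of Adamts1 in 3 of 6 cases, with a log2 change of 0.88 without Control replicate 3, and that of Mmp12 in 4 of 6, with 0.85 without Tat-Cocaine replicate 3. In a fit to the 6 libraries alone 3 of 8 members tested were called in place of 7 (Mmp12 was not tested), and the FDR of Mmp9 was 0.135 and that of Mmp2 0.0628. Between Tat-Cocaine and Tat cultures no member was called (0 of 10 by limma, 1 at an unadjusted p under 0.05; 0.0189% of all genes). With cocaine added to Tat over 5 backgrounds (15 libraries against 15, 4.55% of all genes called), Mmp12 alone was called, at a log2 change of 0.57 (SE 0.15, FDR = 0.0248), and in 3 of 30 cases a left-out library ended this call (0.49, FDR = 0.0581 without Tat-Cocaine-Amlexanox replicate 1).

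Mmp12, the macrophage elastase, and Mmp3 (stromelysin-1, which cuts proteoglycans and activates other precursors) were near the floor of the measurement. Mmp12 was at 0.192, 0.0981 and 0.0908 CPM in Control libraries, which is 5, 2 and 2 reads. In Tat-Cocaine libraries it was at 0.894, 0.409 and 1.41 CPM, or 21, 10 and 35 reads. It was at 0 in Tat replicate 1 and Tat-Amlexanox replicate 1, where a count of 0 allows up to 0.152 and 0.167 CPM (3 reads, counting error only). Mmp3 was at 0.575, 0.49 and 0 CPM in Control (the 0 allows up to 0.136 CPM) and at 0.887, 0.552 and 1.02 CPM with Tat, and those groups overlapped. Its highest values were 5.18 CPM in Tat-Cocaine replicate 2 and 5.33 CPM in Tat-Cocaine-4OI replicate 1, each far above the other 2 libraries of its group.

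Promoter windows are shown for 4 members. A match to the AP-1 motif was found in the windows of Mmp3 and Mmp12, but not in the Timp1 and Adamts4 windows. Each is the 250 bases before the annotated start, read 5′ to 3′ on the gene's strand, from RefSeq on GRCr8, with the AP-1 match in capitals. Windows were found for 7 of 10 members, and none is given for Mmp2, Mmp9 and Mmp14. The match does not divide the 4 shown by their response to Tat. Timp1, Adamts4 and Mmp3 all rose with Tat averaged over the backgrounds. Mmp12 did not, but it was called higher in Tat-Cocaine than in Control cultures. Mmp2 and Mmp9 also rose with Tat and have no window, and a link between the match and the response was not tested.
Mmp3 (chr8:12925031-12925280, + strand): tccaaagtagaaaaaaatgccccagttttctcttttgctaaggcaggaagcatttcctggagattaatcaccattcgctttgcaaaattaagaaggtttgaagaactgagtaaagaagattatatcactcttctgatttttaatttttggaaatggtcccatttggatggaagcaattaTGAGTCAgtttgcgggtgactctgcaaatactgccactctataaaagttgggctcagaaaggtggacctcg
Mmp12 (chr8:12866402-12866651, + strand): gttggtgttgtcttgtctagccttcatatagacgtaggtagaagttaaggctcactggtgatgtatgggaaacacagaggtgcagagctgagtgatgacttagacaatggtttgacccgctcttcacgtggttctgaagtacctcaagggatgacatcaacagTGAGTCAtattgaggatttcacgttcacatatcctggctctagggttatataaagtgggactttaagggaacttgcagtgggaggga
Timp1 (chrX:3771123-3771372, - strand): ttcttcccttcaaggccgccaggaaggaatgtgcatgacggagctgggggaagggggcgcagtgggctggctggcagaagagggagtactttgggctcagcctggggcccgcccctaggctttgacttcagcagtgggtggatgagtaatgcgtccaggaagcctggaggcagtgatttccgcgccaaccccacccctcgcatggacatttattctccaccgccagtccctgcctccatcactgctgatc
Adamts4 (chr13:86202761-86203010, + strand): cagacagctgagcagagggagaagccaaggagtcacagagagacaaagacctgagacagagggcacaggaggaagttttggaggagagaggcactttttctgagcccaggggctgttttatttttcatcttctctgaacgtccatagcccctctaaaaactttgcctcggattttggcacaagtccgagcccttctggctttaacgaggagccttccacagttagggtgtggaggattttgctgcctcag

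The AP-1 motif was searched as TGANTCA on both strands and was found in 2 of 7 member windows, starting 71 bases before the start of Mmp3 and 87 before that of Mmp12, and in 6.34% of all 33469 windows of this length. The STAT motif TTCNNNGAA (both strands) was found in 1 of 7, at 121 bases before the start of Adamts4, and in 7.67% of all windows. The NF-kappaB motif was found in 0 of 7 and in 3.54% of all windows. A TATA box (TATAAA, sense strand) was found in 3 of 7 (Mmp3, Mmp12 and Adamts1) and in 8.06% of all windows. A match describes letters in the window and was not tested for use by any factor. Sites that differ from these letters were not searched for, so a window without a match may hold them. The Timp1 window holds TGAGTAA, which is close to TGANTCA and was not counted.

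4OI without Tat gave no call among the members (0 of 10 by limma, 1 at an unadjusted p under 0.05; 3.15% of all genes called). With Tat, Mmp2 was lower with it in both settings. In Tat-4OI libraries Mmp2 was at 6.64, 11.7 and 6.71 CPM, against 24.2 to 34.4 CPM with Tat alone (log2 -1.82, SE 0.39, FDR = 0.00128). In Tat-Cocaine-4OI libraries it was at 5.52, 17.03 and 9.24 CPM, against 28.8, 49.1 and 39.4 CPM in Tat-Cocaine (log2 -1.94, SE 0.39, FDR = 0.00113). All 6 libraries with 4OI lay below all 6 without it, and within the range of the Control libraries (4.45 to 17.6 CPM). It was the only member called in each comparison, where 15.6% and 7.36% of all genes were called. In a fit to the compared libraries alone, the FDR beside Tat and cocaine was 0.114. The difference between the Tat response with 4OI and without it was not called for any member (0 of 10, 2 at an unadjusted p under 0.05; 0.497% of all genes), and for Mmp2 it was a log2 of -1.62 (SE 0.55, FDR = 0.194).

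Averaged over Tat and Tat-Cocaine cultures (6 libraries against 6, a comparison added after the values were seen), 4OI lowered Mmp2 (log2 -1.88, SE 0.27, FDR = 3.95e-06), Mmp9 (-1.17, SE 0.39, FDR = 0.0278) and Timp1 (-0.68, SE 0.21, FDR = 0.0192, lost in 2 of 12 cases of a left-out library), 3 of 10 members against 20.9% of all genes. Mmp9 was at 6.1, 11.5 and 6.03 CPM in Tat-4OI and at 5.24, 7.93 and 6.69 CPM in Tat-Cocaine-4OI libraries, and 4 of these 6 lay below each library without 4OI. The call of Mmp9 was lost in 5 of 12 cases of a left-out library, with a log2 change of -0.75 (FDR = 0.152) without Tat-Cocaine replicate 3, and when these libraries were fitted by themselves (FDR = 0.15). Timp1 was at 102.8, 213.7 and 175.5 CPM and at 175.6, 165.1 and 141.9 CPM in the same libraries, 5 of 6 below the lowest value without 4OI (199.6 CPM) and all 6 above the highest of the series without Tat. Adamts4 was lower in all 6 (21.2 to 36.97 CPM against 38.3 to 112.9 CPM) and missed the threshold (log2 -1.20, SE 0.46, FDR = 0.0601). Mmp3 stood the other way, at 1.87, 3.98 and 2.92 CPM in Tat-4OI libraries, above the 3 Tat libraries, with a log2 difference of 1.35 (SE 0.49, FDR = 0.059). Against 4OI alone (0.331, 0.518 and 0.167 CPM) the rise of Mmp3 was called (log2 2.00, SE 0.49, FDR = 0.0134), except in 3 of 6 cases in which a library was left out.

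Microglia markers were lower with 4OI too. Of 12, 4 were lower and 0 higher in Tat-4OI against Tat, led by Spi1 (log2 -1.49, SE 0.41, FDR = 0.0114), and 4 were lower in Tat-Cocaine-4OI against Tat-Cocaine, led by C1qa (log2 -1.53, SE 0.44, FDR = 0.0272). The summed level of the list was 878 to 1931 CPM in Tat-4OI against 2025 to 3618 CPM in Tat libraries, and 602 to 1828 CPM in Tat-Cocaine-4OI against 1531 to 2536 CPM in Tat-Cocaine libraries. Of 7 fibroblast and mural cell markers, 1 was lower in Tat-4OI (Pdgfrb, log2 -1.20, SE 0.25, FDR = 0.00106), where 9.48% of all genes were lower. In Tat-Cocaine-4OI 2 of 7 were lower (Lum, log2 -1.81, and Dcn, log2 -1.66, SE 0.52 each, FDR = 0.0271 and 0.0426), where 7.36% of all genes were called in either direction. None of the 7 was higher in either comparison. Lum and Dcn were low genes, with medians of 0.504 and 1.43 CPM over the 48 libraries. The summed level of the 7 markers was 85.2 to 250.5 CPM in Tat-4OI against 186.1 to 444.1 CPM in Tat libraries. It was 91.2 to 512.7 CPM in Tat-Cocaine-4OI against 290.1 to 484.4 CPM in Tat-Cocaine libraries, and the ranges overlapped in both cases. Of 9 astrocyte markers, 1 was higher in Tat-4OI (Slc1a2, log2 0.79), where 6.1% of all genes were higher. In Tat-Cocaine-4OI 4 were higher (S100b, Gfap, Slc1a2 and Sox9, log2 0.49 to 1.36), and 0 were lower in either comparison. The part of these cell types in the levels of Mmp2 and Mmp9 was not tested.

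**Figure D3:**
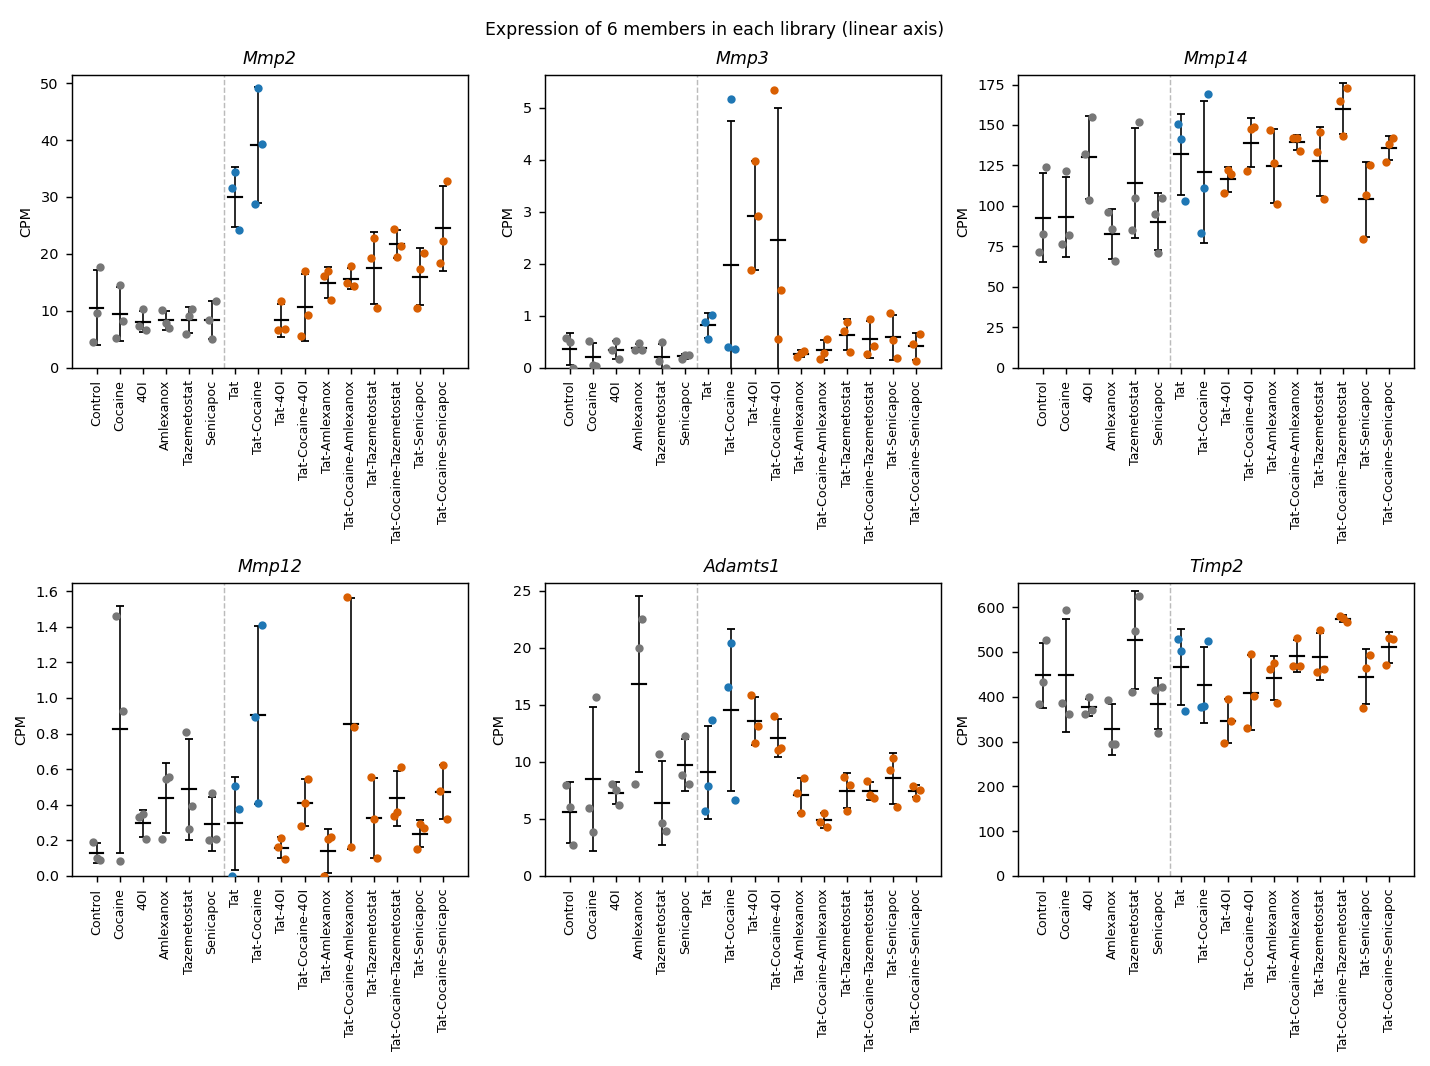
CPM of Mmp2, Mmp3, Mmp14, Mmp12, Adamts1 and Timp2 in each of 48 libraries (points, 3 per group; lines are mean ± SD, cut at 0), with colours for groups without Tat (grey), Tat and Tat-Cocaine (blue) and Tat with a compound (orange). Of the 24 orange Mmp2 points, 22 lie below the lowest blue one at 24.2 CPM, and single libraries carry the highest Mmp3 and Mmp12 values.

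Mmp2 was lower with the other compounds as well. With Amlexanox it was at 16.02, 16.97 and 11.9 CPM beside Tat and at 14.9, 17.8 and 14.3 CPM beside Tat and cocaine, and all 6 lay below the 6 libraries without a compound. Over Tat and Tat-Cocaine cultures, again added after the values were seen, its log2 change was -1.12 with Amlexanox (SE 0.27, FDR = 0.0102), -0.81 with Tazemetostat (SE 0.27, FDR = 0.0439) and -0.80 with Senicapoc (SE 0.27, FDR = 0.142, not called). The call with Tazemetostat was lost in 10 of 12 cases of a left-out library and when these libraries were fitted by themselves (FDR = 0.0869). In these averages 2 members were called with Amlexanox (7.16% of all genes), 1 with Tazemetostat (14.6%) and 0 with Senicapoc (0.56%; 4 members at an unadjusted p under 0.05). Taken over the 4 compounds together (24 libraries against 6), Mmp2 was the 1 member called (log2 -1.15, SE 0.22, FDR = 0.00137; 5.02% of all genes), and Adamts4 had a log2 difference of -1.06 (SE 0.36, FDR = 0.0874), with 18 of 24 libraries below all 6. These comparisons share the same 6 Tat and Tat-Cocaine libraries, so they are not independent of each other. No group is labelled as a vehicle control, and the part of the solvent in these differences was not tested.

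For Timp1 the compounds stood at different levels. Over Tat and Tat-Cocaine cultures it was lower with Amlexanox (log2 -0.77, SE 0.21, FDR = 0.0229), in all 6 libraries (112.6 to 194.5 CPM against 199.6 to 326.4 CPM). With Tazemetostat it was at 235.4 to 334.2 CPM, within or just above that range, and the log2 difference was 0.08 (SE 0.21, FDR = 0.806). The call with Amlexanox was lost in 5 of 12 cases of a left-out library. Mmp9 had no call with Amlexanox, Tazemetostat or Senicapoc, with log2 differences of 0.46, 0.18 and 0.95 (SE 0.39 each).

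Single-setting comparisons of these 3 compounds on Tat gave 0 of 10 members in each. For Amlexanox, 0.837% of all genes were called on Tat (2 members at an unadjusted p under 0.05) and 0.925% on Tat-Cocaine (4 members). For Tazemetostat these were 0% on Tat (1 member) and 28.7% on Tat-Cocaine (2 members), and Timp2 came nearest there at 581.1, 575.7 and 566.1 CPM against 376.0, 378.6 and 523.4 CPM (log2 0.45, SE 0.18, FDR = 0.0558). For Senicapoc they were 0.409% on Tat (1 member) and 0.0441% on Tat-Cocaine (0 members). Alone, neither Tazemetostat nor Senicapoc gave a call in any gene (0% each; 0 and 1 members at an unadjusted p under 0.05). Same-numbered Tat-Amlexanox and Tat libraries deviated together (correlations of 0.27, 0.54 and 0.68), but the labels name no pairs. A replicate block was tried for this reason, after the data were seen. In a fit to those libraries alone it called 3 of 9 members tested in place of 0, and 3.52% of all genes. For the same Tat libraries these correlations were -0.36, -0.14 and -0.78 with Tat-Cocaine and 0.01, 0.7 and 0.56 with Tat-Tazemetostat libraries. Same numbers thus did not deviate together in every group, and the count with the block is a description only.

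Amlexanox alone gave calls in 2 of 10 members, where 11.4% of all genes were called. Timp3 was at 128.8, 64.5 and 49.2 CPM against 168.8 to 270.9 CPM in Control (log2 -1.41, SE 0.26, FDR = 0.000672). Adamts1, an enzyme that cuts versican and aggrecan, was at 8.06, 19.98 and 22.5 CPM against 7.94, 6.03 and 2.72 CPM (log2 1.5, SE 0.40, FDR = 0.0138). In each gene replicate 1 stood nearest to Control. Timp1 split in the same way, at 40.4, 99.8 and 94.95 CPM (log2 0.83, SE 0.30, FDR = 0.0673), and the summed astrocyte markers were 13664, 9043 and 5822 CPM in the 3 libraries, against 10525 to 12542 CPM in Control, with 6 of 9 astrocyte markers called lower. The part of astrocytes in these levels was not tested. Timp3 stayed called without any 1 library (log2 -1.80 to -1.11), and Adamts1 in 3 of 6 cases (1.1 to 1.95). In a fit to the 6 libraries alone neither was called (FDR = 0.228 for Timp3 and 0.255 for Adamts1).

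With Tat added to Amlexanox, Timp3 was at 95.9, 88.8 and 107.5 CPM (log2 0.38, SE 0.26, FDR = 0.226), Adamts1 was lower (log2 -1.09, SE 0.40, FDR = 0.0325) and Mmp14 higher (log2 0.59, SE 0.23, FDR = 0.0406). Each of the last 2 calls was lost in 4 of 6 cases of a left-out library, that of Adamts1 also in a fit to the 6 libraries alone (FDR = 0.0565), and that of Timp1 without Amlexanox replicate 1 (log2 0.65, FDR = 0.0797). Same-numbered Tat-Amlexanox and Amlexanox libraries deviated together weakly (correlations of 0.22, 0.18 and 0.24), and the labels name no pairs. A replicate block was tried for this reason, after the data were seen. In a fit to those libraries alone it called 7 of 8 members tested in place of 4, and 38.2% of all genes. The Tat response itself differed between cultures with and without Amlexanox in 2 of 10 members (1.84% of all genes): Timp3 by a log2 of 1.4 (SE 0.36, FDR = 0.0402) and Timp1 by -1.69 (SE 0.42, FDR = 0.036). With 1 of 12 libraries left out, the first stayed called in 3 cases and the second in 5. In a fit to the compared libraries alone neither was called (FDR = 0.211 for Timp3 and 0.196 for Timp1). Corresponding differences for Tazemetostat and Senicapoc were called in 0 of 10 members (0% of all genes each, 0 members at an unadjusted p under 0.05).

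**Figure D4:**
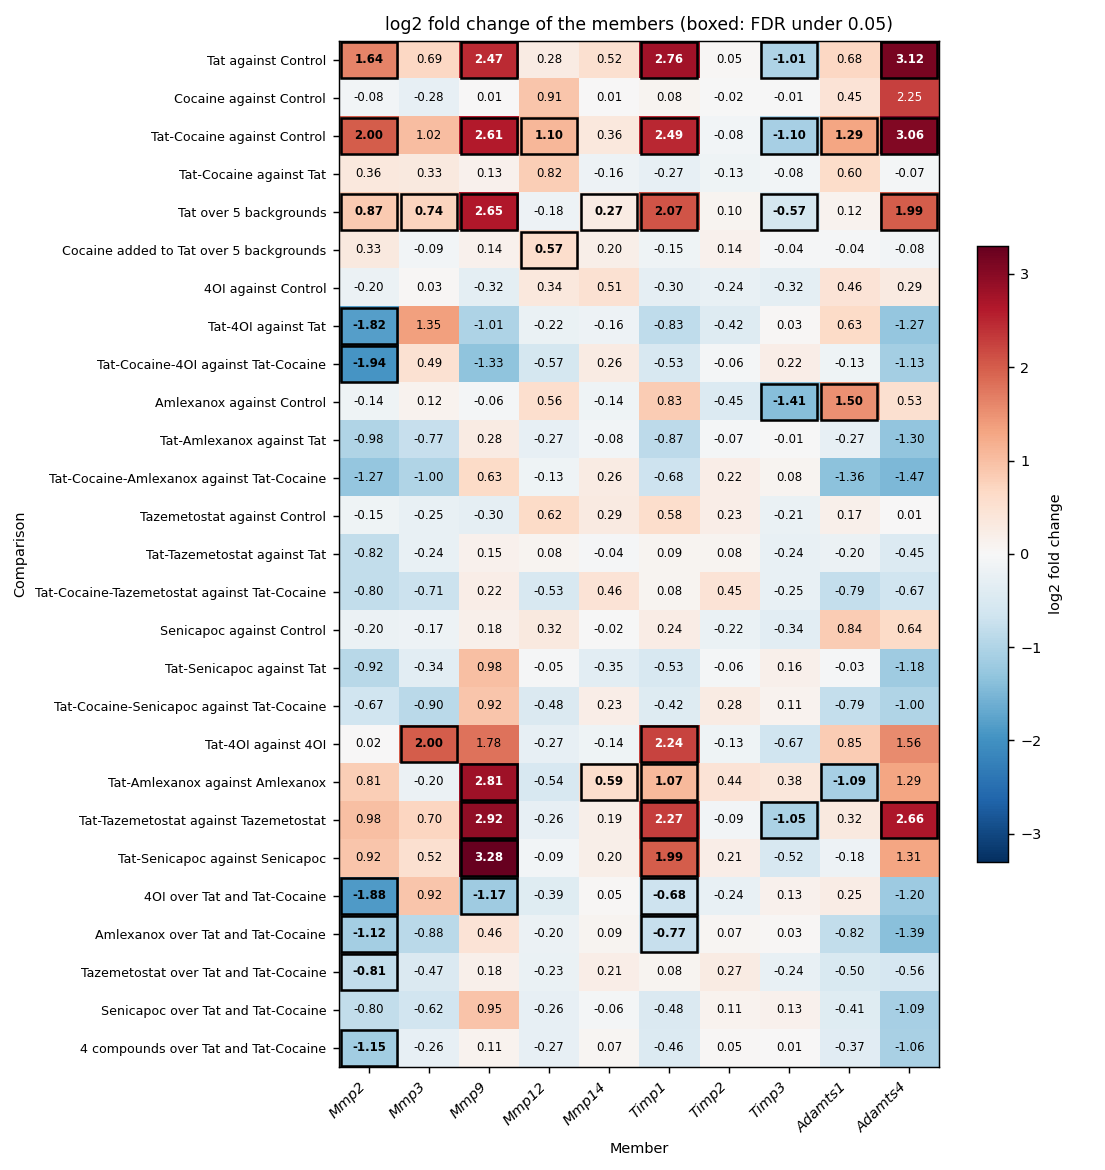
log2 fold change of the 10 members (columns) in 27 comparisons (rows), from limma on log2(CPM + 0.5), with red for higher, blue for lower, and boxes where the FDR over 15890 genes was under 0.05. Boxes with Tat fall mostly on Mmp9, Timp1, Adamts4, Mmp2 and Timp3, and those with a compound on Tat fall mostly on Mmp2.

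Timp2, the inhibitor that also takes part in the activation of MMP2, ranged from 294.0 to 625.5 CPM over the series and was called in 0 of 31 comparisons. Mmp14 ranged from 66.1 to 172.9 CPM and was called in 2 of 31. By group mean, Mmp9 was lowest in Tazemetostat (1.88 ± 0.396 CPM) and 4OI cultures (1.88 ± 0.59) and highest in Tat-Senicapoc (32.4 ± 9.0) and Tat-Cocaine-Senicapoc cultures (34.6 ± 12.6), and these neighbours overlapped. Timp1 was lowest in 4OI (33.02 ± 3.44 CPM) and highest in Tat-Tazemetostat cultures (297.5 ± 33), followed by Tat (281.7 ± 47.5), which overlapped with it. Mmp2 was highest in Tat-Cocaine (39.1 ± 10.2 CPM) and Tat cultures (30.02 ± 5.27), which overlapped.

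The other genes of the system came from lists. Of 8 further metalloproteinase genes tested, 3 rose and 3 fell with Tat over 5 backgrounds, among them Mmp17 (log2 -0.63, SE 0.16, FDR = 0.000931) and Mmp23 (log2 0.41, SE 0.11, FDR = 0.00241). Of 17 further ADAMTS genes 5 rose and 6 fell. The largest changes were the rises of Adamts14 (log2 1.24, SE 0.15, FDR = 1.48e-08) and Adamts7 (log2 1.02, SE 0.13, FDR = 8.75e-08). Adamts14 was a low gene, with a median of 1.28 CPM without and 4.07 CPM with Tat. Of 7 other inhibitors 1 rose and 3 fell, and the largest change was that of Timp4, the remaining member of the TIMP family, at 3.96 to 13.8 CPM without and 1.12 to 7.6 CPM with Tat (log2 -0.99, SE 0.15, FDR = 1.41e-06). Of 9 membrane-bound ADAM genes 4 rose, and 1 fell, Adam22 (log2 -0.25, SE 0.10, FDR = 0.042), which is known as a receptor without protease activity. Among those that rose, Adam17, which releases TNF from the membrane, had a log2 change of 0.54 (SE 0.08, FDR = 1.04e-06). These counts are to be read against the 29.9% higher and 26.7% lower over all genes, and the list medians lay between a log2 of -0.24 and 0.20.

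Among activators and their inhibitors 4 of 13 rose and 5 fell with Tat over 5 backgrounds, beside 29.9% and 26.7% of all genes. Lcn2, a secreted protein known to bind MMP9 and protect it from breakdown, was at 13 to 402.2 CPM without and 1467 to 13561 CPM with Tat (78.3-fold, log2 6.29, SE 0.35, FDR = 2.22e-16). The ranges with and without Tat did not overlap, but the share of all genes that separate in this way is not given. With 4OI on Tat, the ADAMTS genes Adamts14 (log2 -1.62, SE 0.33, FDR = 0.000887) and Adamts7 (log2 -1.35, SE 0.30, FDR = 0.00172) were lower.

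Substrates of these enzymes were also measured. Of 22 genes for brain matrix proteins, 5 rose and 8 fell with Tat over 5 backgrounds, beside 29.9% and 26.7% of all genes. Bcan (brevican, a proteoglycan of perineuronal nets) was at 230.3 to 556.0 CPM without and 46.1 to 270.1 CPM with Tat (log2 -1.51, SE 0.16, FDR = 1.56e-09), and Lama1, a laminin chain, rose (log2 2.21, SE 0.14, FDR = 1.12e-14). With 4OI on Tat 6 of the 22 rose and 2 fell, where 6.1% of all genes rose and 9.48% fell. Ncan (neurocan) was at 750.8 to 878.0 CPM in Tat-4OI against 202.1 to 243.3 CPM in Tat libraries (log2 1.85, SE 0.23, FDR = 6.86e-07), and Bcan was higher there by a log2 of 1.08 (SE 0.36, FDR = 0.0373). Without Tat, 4OI against Control also had higher Ncan (log2 1.03, SE 0.23, FDR = 0.00615), Tnc (log2 1.07) and Sparcl1 (log2 0.70). Agrn was lower there (log2 -0.36). Bcan was at 328.9 to 415.6 CPM with 4OI alone and at 309.3 to 405.7 CPM in Control.

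By Spearman correlation over the 48 libraries, the genes most like Timp1 were Has2 (rho 0.953), Antxr2 (0.947) and Cd44 (0.946), and those most like Adamts4 were Fgl2 (0.95), Enpp4 (0.864) and Rgs16 (0.863). For Mmp9 they were Cxcl9 (0.894), Bag4 (0.891) and Gpam (0.89), and for Mmp2 Kank4 (0.897), Rassf4 (0.887) and Adamts7 (0.886). Timp3 was nearest to Cnn1 (0.871), Mmp14 to Unc119b (0.908), Timp2 to RGD1308117 (0.919) and Adamts1 to Mettl22 (0.804). For the low gene Mmp12 the highest value was 0.624 (Snord65). Libraries of a group share a treatment, so these values describe the series and are no tests.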

How the data were processed

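RNA was sequenced from 48 cultures. Per the study's methods the reads were aligned with STAR and uniquely mapped reads were counted per gene with featureCounts. The submitters' processing notes list Trim Galore 0.4.5, FastQC, STAR 2.7.2, SAMtools 1.5 and Subread 1.5.3, and the methods name no trimming tool and give an older SAMtools version. The deposited values are a signal that the authors made from these counts by TMM scaling to CPM. Whether they used Rnor_6.0 (study methods) or mRatBN7.2 (processing notes) differed between sources, so no gene position is printed other than RefSeq GRCr8 windows. The table also holds 196 columns not used here, 16 group means and 180 columns of the authors' own comparisons (log fold changes, average CPM, test statistics, p-values and FDR). CPM steps gave whole reads for 85.1 to 87.2% of values within 0.02 read, too few for a count test.

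Values were tested with limma 3.58.1 in R 4.3.3 as log2(CPM + 0.5), in 1 fit to all 16 groups, with Benjamini-Hochberg adjustment over all genes tested. The filter was 0.5 CPM in at least 3 libraries. Python 3.11.15 and pandas 2.3.3 were used for summaries. The test was checked on simulated data. No library was left out of the main fit. In all, 31 comparisons were made, 5 of them added after the values were seen. The members and the 14 other gene lists were chosen with earlier results of these data known. All 10 members are named, and from each list up to 4 called genes with the largest change in Tat over 5 backgrounds or in a 4OI comparison, plus the genes most correlated with each member. Some genes that this rule names are not reported here. Replicate numbers were taken as pairs where every same-numbered pair of libraries deviated together with a correlation over 0.1, which held in 6 of 20 comparisons. This choice was made from the same data, and the labels name no pairs, so counts with a block chosen in this way are descriptions only. Alternatives were the pseudocount, the filter, median-ratio scaling, quantile normalization, limma without its trend, a replicate block, a fit to the compared groups only and leaving out each library.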

Additional observations from a re-analysis of the deposited data

Results flagged for a closer look

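The response of 2 inhibitors to Tat differed between cultures with and without Amlexanox, by the limma test of the difference itself. For Timp1 the difference in log2 change was -1.69 (SE 0.42, FDR = 0.036), from 2.76 without Amlexanox to 1.07 with it. For Timp3 it was 1.4 (SE 0.36, FDR = 0.0402), from -1.01 to 0.38. Amlexanox replicate 1 stood nearer to Control than the other 2 Amlexanox libraries in both genes, and the highest FDR on leaving out a library was 0.203 for Timp1 and 0.223 for Timp3, each without Amlexanox replicate 3. The cause was not tested.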

How the results depend on the processing

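Of 45 called values of members, 24 stayed called under every alternative and without each library, and 0 reversed. In a fit to the compared groups only, the number of members called was 3 in place of 5 for Tat against Control, 3 in place of 7 for Tat-Cocaine against Control, 2 in place of 1 for Tat-4OI against Tat, 0 in place of 1 for Tat-Cocaine-4OI against Tat-Cocaine, 0 in place of 2 for Amlexanox against Control, 1 in place of 0 for Tat-Cocaine-Tazemetostat against Tat-Cocaine, 5 in place of 2 for Tat-4OI against 4OI, 0 in place of 2 for the Tat response with against without Amlexanox, and, over Tat and Tat-Cocaine, 0 in place of 1 for Tazemetostat and 3 in place of 1 for the 4 compounds. That fit has fewer samples. Over all genes it called 1252 in place of 3382 for Tat against Control, 619 in place of 2372 for Tat-Cocaine against Control, 1134 in place of 2475 for Tat-4OI against Tat, 113 in place of 1170 for Tat-Cocaine-4OI against Tat-Cocaine, 101 in place of 501 for 4OI against Control and 0 in place of 1804 for Amlexanox against Control. With a minimum of 2 CPM, 0 members were called for cocaine added to Tat, since Mmp12 was not tested. A pseudocount of 1 and quantile normalization each gave 2 in place of 1 for Tat-4OI against Tat. Without a minimum, 0 were called for the Amlexanox difference and 0 for Tazemetostat over Tat and Tat-Cocaine; the cause was not tested. The replicate block gave 3 for Tat-4OI against Tat, 1 for Tat-Amlexanox against Tat, 1 for Tat-Cocaine-Tazemetostat against Tat-Cocaine and 2 for the 4 compounds. In the compared groups only (chosen after seeing the data), the replicate block gave 3 for Tat-Amlexanox against Tat and 7 for Tat-Amlexanox against Amlexanox.

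Without 1 library each, the number of members called ranged from 0 to 2 for Cocaine against Control, 0 to 1 for cocaine added to Tat, 1 to 2 for Tat-4OI against Tat, 1 to 4 for Amlexanox against Control, 0 to 1 for Tat-Cocaine-Amlexanox and 0 to 3 for Tat-Cocaine-Tazemetostat and 0 to 1 for Tat-Cocaine-Senicapoc against Tat-Cocaine (highest without Tat-Cocaine replicate 3), 1 to 2 for Tat-4OI against 4OI, 2 to 5 for Tat-Amlexanox against Amlexanox and 0 to 3 for the Amlexanox difference. Over Tat and Tat-Cocaine it was 1 to 5 for Amlexanox, 0 to 1 for Tazemetostat, 0 to 1 for Senicapoc and 1 to 2 for the 4 compounds. Over all genes, Tat-Cocaine-Tazemetostat against Tat-Cocaine had 174 calls in place of 4554 without Tat-Cocaine-Tazemetostat replicate 2. At 8.58 to 14.96 reads per 0.5 CPM, differences of Mmp3 and Mmp12 rest on few reads.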
